A study of Caenorhabditis elegans with 12 samples.

Results

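The nematode-specific peptide genes of groups A, B, C and E (nspa, nspb, nspc and nspe) were followed through 12 RNA-Seq libraries of whole Caenorhabditis elegans L4 larvae. The families took in every gene of the count table whose symbol carries one of these 4 prefixes and a number, which gave 49 of 21882 genes: 10 nspa, 12 nspb, 19 nspc and 8 nspe. They were selected on measured values of the same libraries, because nspc-5 was among the largest falls against wild type. By log2 fold change it ranked 5 among the 1417 genes called lower in mutants, and 3 among the 2119 called lower in the neuronal rescue. Differences from wild type are therefore given here as a description. Which members passed the threshold against wild type, and under which settings, is listed in that sense only, and nothing is read from it.

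The study asked which transcripts respond to loss of raga-1, and which of them respond when raga-1 is put back in neurons alone. RAGA-1 is the worm RagA GTPase, which activates the growth-promoting kinase complex TORC1. The 3 groups were raga-1(ok386) null mutants, the same mutants carrying the extrachromosomal array rab-3p::raga-1::SL2::mCherry (the neuronal rescue), and wild type N2 (WT), with 4 samples each. All worms were fed HT115 bacteria with the empty L4440 vector, and each sample was a pool of about 1000 mid-L4 worms from its own egg lay.

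The rab-3 promoter is pan-neuronal, can be leaky in the intestine, and here drove a multicopy array. Rescue worms were picked under a fluorescence microscope whereas mutants and WT were washed from plates, so handling and strain cannot be told apart for the rescue. Counting the first collection as day 1, mutants and rescue were both collected on days 1, 2, 4 and 6, and WT on days 2, 4, 6 and 8. Since whole worms were sequenced, fewer cells of a type and less RNA per cell cannot be told apart in any difference below.

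The nsp genes encode short peptides that were named for being found in nematodes and sorted into groups by sequence. For most of them no function is known. Like many young gene families in worms they lie in clusters of near-identical copies, as repeated duplication leaves them. The fifth family, nspd, lies outside the set and is known for expression in the male germline and sperm of Caenorhabditis. It was set beside them together with the major sperm protein (msp) genes, whose products form the cytoskeleton of the crawling sperm.

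All 49 genes were found in the Ensembl release 115 annotation of the WBcel235 genome, 45 as protein coding and 4 as pseudogenes (nspa-11, nspa-12, nspc-8 and nspc-11). There 43 carried the same symbol, 2 a different one (nspa-4 and nspa-6 are listed as nspa-5 and nspa-7) and the 4 pseudogenes none. The symbols of the count table are kept here. The coding nspa models have 34 amino acids in 1 exon and a transcript of 105 bases, with no untranslated region annotated. The nspb peptides have 79 to 86 amino acids, the nspc peptides 101 to 103 and the nspe peptides 71 to 75, and every coding nspb and nspc gene has 2 exons.

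The 19 nspc genes all lie on chromosome X, in 3 arrays. The first array runs from 8534672 to 8542283 (7.61 kb) and holds nspc-1, nspc-2, nspc-3, nspc-4, nspc-5 and nspc-7. The second runs from 12342289 to 12361159 (18.87 kb) with nspc-8 to nspc-15, and the third from 14523575 to 14530207 (6.63 kb) with nspc-16 to nspc-20. Gaps of 3.8 and 2.16 Mb separate them. Several neighbours start back to back: 362 bp separate the starts of nspc-1 and nspc-2, 363 bp those of nspc-4 and nspc-5, and 229 bp those of nspc-9 and nspc-10.

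The other families are more scattered. Of the nspa genes, 7 lie within 140.83 kb of chromosome V (14750353 to 14891186), among 27 coding genes in all. The nspb genes form a run of 5 on chromosome IV (8.88 kb, nspb-1 to nspb-5) and a run of 4 on chromosome II (9.95 kb, nspb-7 to nspb-10), with nspb-6, nspb-11 and nspb-12 alone on IV, II and III. All 8 nspe genes lie within 16.87 kb of chromosome II.

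Expression was taken from estimated counts, made by assigning reads to transcripts, and is given as CPM, the count of a gene per 1000000 counts of its library, with library sizes scaled by TMM. Totals ran from 14287496 to 35619409 estimated counts per library, lowest in WT replicate 1, and 3 counts correspond to 0.0851 to 0.217 CPM. Reads that fit several near-identical copies are shared out by the estimate, so a level of 1 copy is less certain than the total of its array or family. Labels were checked by raga-1 itself, which stood at 1.42 to 1.76 CPM in mutants, 805 to 891 CPM in the rescue and 61.8 to 70.2 CPM in WT.

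Of the 49 genes, 37 had enough counts to be tested: 5 nspa, 12 nspb, 17 nspc and 3 nspe. The other 12 were close to silent at this depth. Among them nspa-2, nspa-9, nspa-10, nspa-11 and nspa-12 had at most 7 counts in any library, nspc-8 and nspc-12 at most 10, and nspe-3, nspe-5, nspe-6, nspe-7 and nspe-8 at most 16. They include 3 of the 4 pseudogenes, but nspc-11 averaged 5.76 CPM in mutants, 6.90 CPM in the rescue and 7.38 CPM in WT. Per kilobase of transcript the tested genes spanned 15.2 to 215 CPM in nspa, 3.29 to 62.4 in nspb, 5.85 to 135 in nspc and 0.564 to 36.0 in nspe.

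A gene was called when its p in edgeR's quasi-likelihood test, adjusted by Benjamini-Hochberg over the 15728 genes tested, was under 0.01. In mutants against WT, 8 of the 37 members were called lower, beside 9.01% of all genes tested, and 1 was called higher, beside 6.36% of all genes. In the rescue against WT, 13 were called lower, beside 13.5% of all genes, and 1 higher, beside 10.2%. The median log2 fold change of the 37 was -0.20 in mutants and -0.61 in the rescue, where all genes tested had medians of 0.00 and 0.04. These comparisons share their WT samples.

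The members differed by family. All 8 called lower in mutants were nspc genes, as were 10 of the 13 called lower in the rescue, and the other 3 were nspa-1, nspa-4 and nspa-8. The member called higher was nspe-4 in both. With collection day as a block the rescue count was 7 rather than 13, beside 6.96% of all genes, and with only days 2, 4 and 6, which all 3 groups share, it was 8, beside 6.98% of all genes.

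The first nspc array held the genes furthest below WT in mutants. Leaving aside nspc-5, which the choice of the families had fixed, its other 5 genes were called lower in mutants, beside 9.01% of all genes tested, and in the rescue, beside 13.5%. Their median log2 fold change was -1.78 in mutants and -1.15 in the rescue. The grouping follows the annotation, but it was made after the counts had been seen. For each gene the values of replicates 1 to 4 follow in order.

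Expression of nspc-5 was 0.203, 0.142, 0.820 and 0 CPM in mutants, 0.449, 0.671, 0 and 0 CPM in the rescue, and 7.97, 6.19, 5.05 and 1.48 CPM in WT. Its estimated counts were 5, 5, 17 and 0 in mutants, 11, 17, 0 and 0 in the rescue, and 110, 139, 129 and 38 in WT. Every mutant and rescue sample lay below every WT sample, although WT replicate 4 stood well under the other WT samples. The log2 fold change was -4.20 ± 0.88 in mutants and -4.28 ± 0.88 in the rescue (SE, n = 4 per group). Because it is the gene that led to the families, and because it rests on so few counts, its neighbours carry more of the description.

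Its divergent neighbour nspc-4 had 8.69, 8.00, 6.22 and 6.39 CPM in mutants, 16.4, 13.8, 11.3 and 9.64 CPM in the rescue, and 41.1, 29.4, 29.7 and 23.4 CPM in WT. The 3 groups did not overlap, with the rescue between mutants and WT. The log2 fold change of nspc-4 against WT was -2.07 ± 0.20 in mutants and -1.27 ± 0.20 in the rescue.

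The most abundant gene of this array per kilobase was nspc-2 (75.3 CPM per kb over all samples), with 8.94, 8.65, 5.98 and 8.22 CPM in mutants, 17.5, 14.1, 12.1 and 9.52 CPM in the rescue, and 58.5, 44.1, 45.9 and 42.9 CPM in WT. Its back-to-back partner nspc-1 had 3.01, 3.77, 3.04 and 4.28 CPM in mutants, 6.82, 6.28, 4.42 and 4.37 CPM in the rescue, and 12.7, 11.6, 12.2 and 11.8 CPM in WT. Both genes thus gave the same order of groups as nspc-4, without overlap. Against WT, nspc-2 differed by -2.58 ± 0.19 (log2) in mutants and -1.85 ± 0.18 in the rescue, and nspc-1 by -1.78 ± 0.17 in mutants and -1.15 ± 0.16 in the rescue.

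The remaining genes of the array, nspc-3 and nspc-7, differed less from WT. In mutants nspc-3 had 17.5, 16, 13.9 and 12.7 CPM, in the rescue 24.0, 19.3, 17.5 and 17.4 CPM, and in WT 44.7, 36.0, 38.8 and 37.2 CPM. For nspc-7 the values were 9.67, 10.4, 8.00 and 9.16 CPM in mutants, 15, 15.2, 11.5 and 11.2 CPM in the rescue, and 25.6, 23.7, 22 and 19.6 CPM in WT. Rescue and mutant samples overlapped slightly for nspc-3 and not for nspc-7, and all of them lay below WT. The log2 fold changes against WT were -1.38 ± 0.13 in mutants and -1.0 ± 0.13 in the rescue for nspc-3, and -1.29 ± 0.13 in mutants and -0.78 ± 0.13 in the rescue for nspc-7.

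Summing over the 6 genes removes any exchange of reads among them. The first array then gave 48.0, 46.9, 38 and 40.7 CPM in mutants, 80.2, 69.2, 56.8 and 52.1 CPM in the rescue, and 191, 151, 154 and 136 CPM in WT. The log2 ratio of means was -1.86 in mutants and -1.29 in the rescue against WT. Without nspc-5 these ratios were -1.82 in mutants and -1.25 in the rescue. Calls for nspc-1, nspc-2, nspc-3, nspc-4 and nspc-7 in both comparisons were kept under every alternative analysis run and with any 1 library left out. The call of nspc-5 in mutants was lost without WT replicate 3 or without mutant replicate 1, 2 or 4, each of which left 7 members called lower. Its call in either comparison was also lost with DESeq2, with at least 10 counts required in every sample, with collection day as a block and with days 2, 4 and 6 alone.

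**Figure D1:**
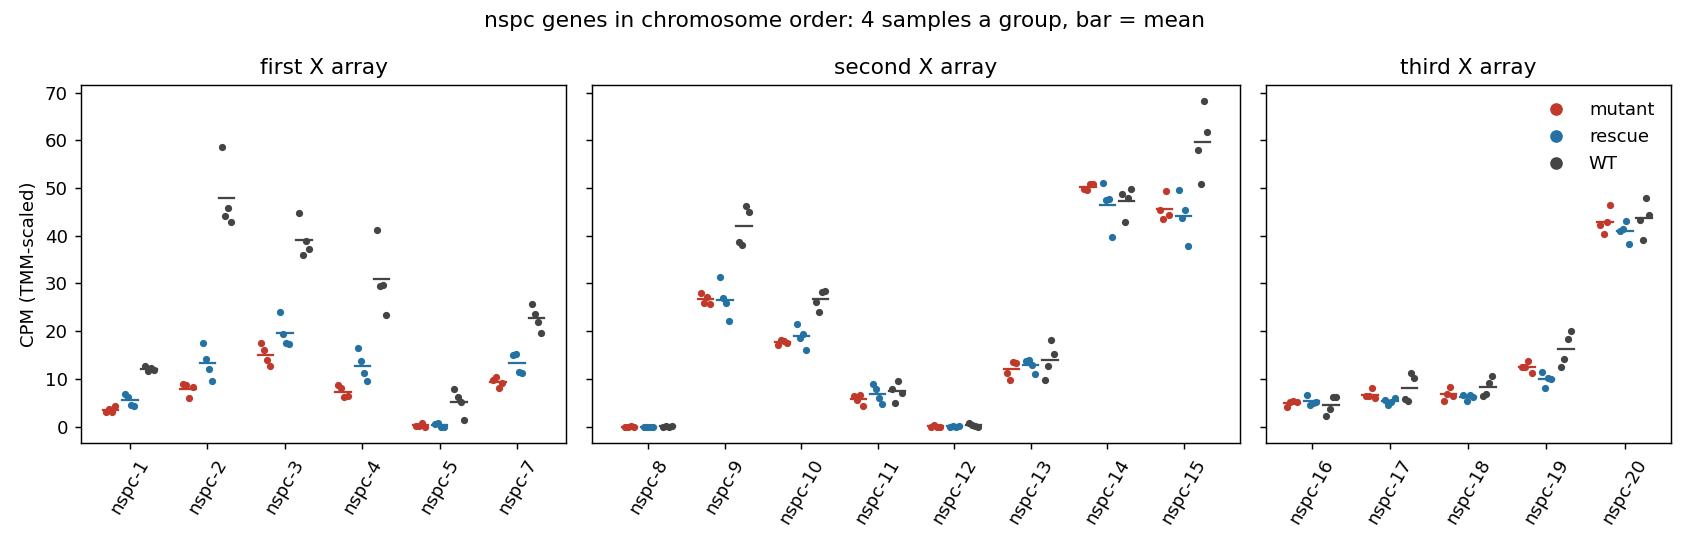
Expression of the 19 nspc genes in CPM (vertical axis) in chromosome order, for the 3 arrays on X; points are the 4 samples of a group, in replicate order, and bars their means, for mutants, rescue and WT. In the first array the 6 genes lie below WT in both other groups, whereas nspc-14 and nspc-20 overlap between all groups near 40 to 50 CPM.

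In the second and the third nspc array differences from WT were smaller and called for some genes only. In the second array 2 of 6 tested genes were called lower in mutants (nspc-9 and nspc-10) and 3 in the rescue (the same genes and nspc-15), and in the third 0 of 5 in mutants and 1 in the rescue (nspc-19). Of all genes tested, 9.01% were called lower in mutants and 13.5% in the rescue, and the counts of the third array lie near these shares. In mutants nspc-9 had 28.1, 25.8, 27.1 and 25.6 CPM, in the rescue 31.3, 27.0, 25.8 and 22.1 CPM, and in WT 38.7, 38.1, 46.2 and 44.9 CPM. Mutants and rescue overlapped for nspc-9, and both lay below WT by a similar log2 fold change (-0.66 ± 0.10 in each).

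Its divergent partner nspc-10 had 17, 18.1, 17.9 and 17.6 CPM in mutants, 21.5, 18.6, 19.5 and 16.1 CPM in the rescue, and 26.2, 24.0, 28.3 and 28.4 CPM in WT. For nspc-15, one of the most abundant of the family per kilobase, values were 45.4, 43.5, 49.3 and 44.3 CPM in mutants, 49.6, 43.8, 45.4 and 37.9 CPM in the rescue, and 57.9, 50.8, 68.2 and 61.7 CPM in WT. Both genes separated WT from the other groups, and neither separated the rescue from mutants. By contrast nspc-14, the neighbour of nspc-15, had 49.8, 49.6, 50.8 and 50.9 CPM in mutants, 51.1, 47.4, 47.6 and 39.7 CPM in the rescue, and 48.7, 42.9, 47.9 and 49.9 CPM in WT. All groups overlapped for nspc-14, with log2 fold changes of 0.09 ± 0.07 in mutants and -0.03 ± 0.07 in the rescue against WT.

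The third array was led by nspc-20 (112 CPM per kb over all samples), with means of 42.9 ± 2.56 CPM in mutants, 40.9 ± 1.99 CPM in the rescue and 43.7 ± 3.64 CPM in WT (SD, n = 4 each). The other 4 genes of the array, nspc-16 to nspc-19, had WT means of 4.59 to 16.2 CPM. For nspc-16, WT samples alone spanned 2.25 to 6.30 CPM, against 4.10 to 5.30 CPM in mutants and 4.50 to 6.70 CPM in the rescue. Its log2 fold changes against WT were 0.07 ± 0.26 in mutants and 0.18 ± 0.26 in the rescue. In nspc-17 the log2 fold changes were -0.29 ± 0.22 in mutants and -0.63 ± 0.22 in the rescue, with all groups overlapping.

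The call of nspc-19 in the rescue was lost without WT replicate 3 or 4 or without rescue replicate 2 or 4, and that of nspc-15 without the same WT replicates or without rescue replicate 2, 3 or 4, which left 10 to 12 members called lower in the rescue. Both calls were also lost with only these groups in the fit and with days 2, 4 and 6 alone, and that of nspc-15 with scaling by library size alone. The nspc-15 gene overlaps F19H6.6 on the same strand, which averaged 0.253 CPM. Collection day as a block ended the calls of nspc-10, nspc-15 and nspc-19 in the rescue, and that of nspc-10 in mutants.

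As totals, the second array gave 158, 153, 165 and 156 CPM in mutants, 176, 159, 157 and 132 CPM in the rescue, and 190, 174, 218 and 207 CPM in WT, a log2 ratio of -0.32 in mutants and -0.34 in the rescue. The third array gave 70.6, 71.1, 78.1 and 75.2 CPM in mutants, 71.4, 63.8, 69.8 and 65.5 CPM in the rescue, and 70, 69.2, 93.0 and 91.1 CPM in WT, a log2 ratio of -0.13 in mutants and -0.26 in the rescue. Mutants lay below WT for the second array and overlapped it for the third, and the rescue overlapped WT for both.

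The make-up of nspc expression is given as a description too. The share of an array does not depend on how libraries are scaled, but it rests on the same counts as the values above. The first array includes nspc-5, which led to the families, and was grouped after the counts had been seen. The first array supplied 15.8 ± 1.90% of all nspc counts in mutants (13.5 to 17.4%), 22.3 ± 2.15% in the rescue (20.0 to 24.5%) and 36.3 ± 5.00% in WT (31.4 to 42.3%; SD, n = 4 each). The ranges do not overlap, which for mutants and the rescue against WT restates the lower values of this array. Since the shares add up to the whole, a lower share of the first array leaves higher shares for the others. The second array supplied 57.4% in mutants, 54.1% in the rescue and 45.2% in WT, and the third 26.8% in mutants, 23.6% in the rescue and 18.5% in WT. The family as a whole averaged 275 ± 4.86 CPM in mutants, 288 ± 32.2 CPM in the rescue and 436 ± 30.6 CPM in WT.

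**Figure D2:**
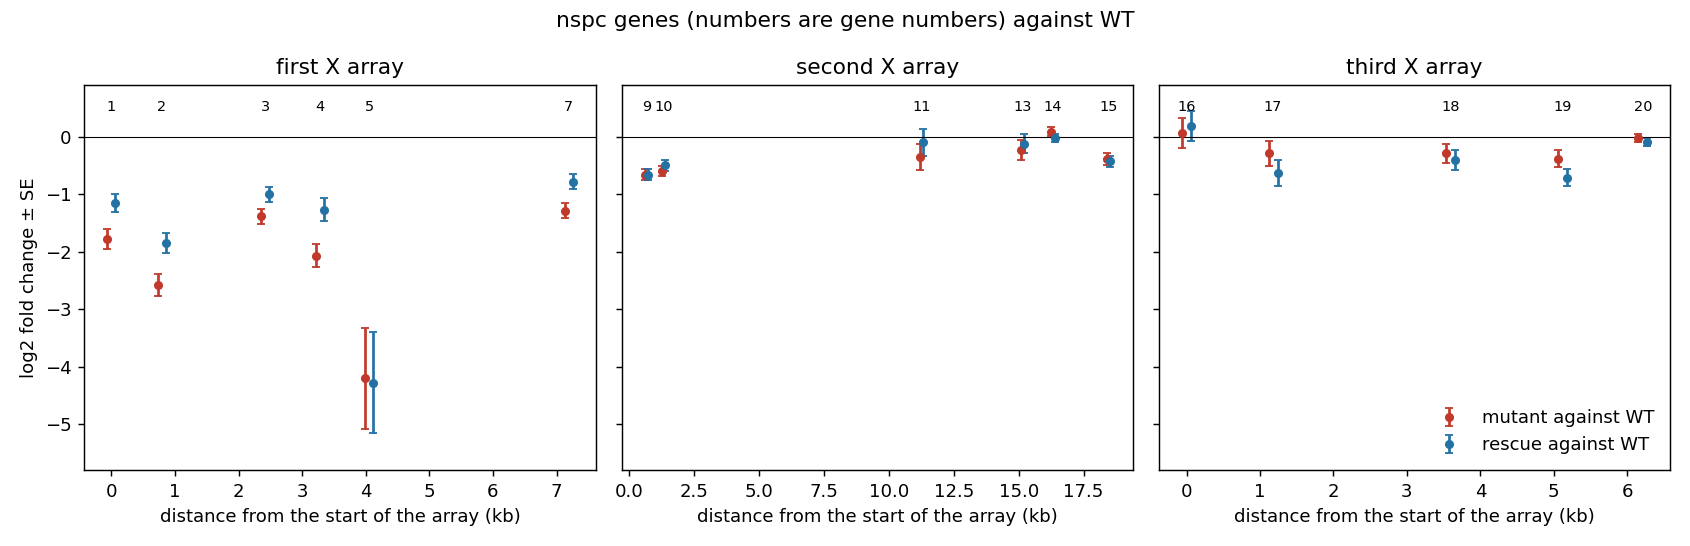
Log2 fold change against WT (vertical axis, ± SE) of each tested nspc gene by distance in kb from the start of its array, for mutants and the rescue; numbers are gene numbers. In the first array values run from -4.28 to -0.78, in the second from -0.66 to 0.09 and in the third from -0.71 to 0.18.

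Genes around the arrays were examined as well, a comparison added after the values were known. Next to or within the first array, 9 coding genes outside the families were tested, and edgeR and DESeq2 called 0 of them lower in mutants or in the rescue, nor was any lower at an unadjusted p under 0.05. The furthest below WT was H03E18.1, with a log2 fold change of -0.92 in mutants (edgeR adjusted p = 0.428) and 0.58 in the rescue. Of all genes tested edgeR called 9.01% lower in mutants and 13.5% in the rescue, so 0 calls among these 9 neighbours lies near that share. The nearest ones were sdha-1, which encodes a subunit of mitochondrial complex II and lies 474 bp beyond the array (log2 fold change -0.15 in mutants and -0.07 in the rescue), and the neuropeptide gene flp-5 on the other side (0.52 in mutants and 0.54 in the rescue, called higher in both). Beside this array utx-1, which encodes a histone demethylase, was also called higher in the rescue (0.57). The second and the third array had 6 and 8 tested neighbours, of which 0 were called lower by either tool, and 1 (F42F12.3, within the second array, -0.40 in mutants) was lower at an unadjusted p under 0.05. Beside the third array M163.1 was called higher in mutants (0.37) and in the rescue (0.50), and T24C2.2 in the rescue (1.59). A further coding gene inside the first array was absent from the count table, so it could not be analysed and is not part of the array total.

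Other genes had profiles close to that of the nspc total. Over the 12 samples non-members with a high Pearson correlation of log2 CPM included F23A7.4 (0.974), hrg-2, a haem-responsive gene of the hypodermis (0.968), the C-type lectin gene clec-10 (0.967) and pbs-5, a proteasome subunit gene (0.966). They share the libraries and their 3-group structure with the nspc genes. In level, F23A7.4 averaged 23.0 CPM in mutants, 24.9 CPM in the rescue and 57.8 CPM in WT.

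The rescue was next compared with mutants. This comparison shows how far the rescue samples stood from the mutant level, with the neuronal array and the handling of the worms not told apart. It was not the one that led to the families, though it shares their samples. Of the 37 tested members 0 were called lower (0.0763% of all genes tested) and 0 higher (0.305% of all genes) by edgeR's quasi-likelihood test. At an unadjusted p under 0.05, 9 members differed, 4 lower and 5 higher, beside 7.49% of all genes tested lower and 9.61% higher. The median log2 fold change of the 37 was -0.33, where all genes tested had a median of 0.00.

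The higher ones were nspc-1, nspc-2, nspc-3, nspc-4 and nspc-7, all in the first array. The rescue stood above mutants by 0.79 ± 0.20 on the log2 scale for nspc-4, by 0.74 ± 0.19 for nspc-2, by 0.63 ± 0.17 for nspc-1, by 0.50 ± 0.13 for nspc-7 and by 0.38 ± 0.13 for nspc-3. After Benjamini-Hochberg adjustment over all genes the edgeR p-values were 0.0708 for nspc-2 and nspc-4, 0.0749 for nspc-7, 0.0801 for nspc-1 and 0.169 for nspc-3. In 4 of these genes (all but nspc-3) every rescue sample exceeded every mutant sample, as in 10.6% of all genes tested. The array total was higher in the rescue by a log2 ratio of 0.57, whereas the second array differed by -0.02 and the third by -0.12. With the replicate number as a block nspc-4 was called higher (1 member, adjusted p = 0.00859 by edgeR, beside 0.172% of all genes called higher). With collection day as a block, under which 0.0381% of all genes were called higher, its edgeR adjusted p was 0.0132 and 0 members were called higher.

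The lower ones were nspa-1, nspa-4, nspa-5 and nspa-8. In 12 members, these 4 nspa genes and 8 nspb genes, every rescue sample lay below every mutant sample, as in 7.15% of all genes tested. DESeq2 called 2 of them lower (nspa-8 and nspa-1), beside 0.835% of all genes with an adjusted p, and 0 members higher. A fit of only the mutant and rescue samples called 6 (nspa-1, nspa-4, nspa-5 and nspa-8 with nspb-8 and nspb-9), beside 0.753% of all genes, and a fit without WT replicate 1, whose values enter the shared estimate of spread, called 4 (nspa-1, nspa-4, nspa-5 and nspa-8), beside 0.277% of all genes.

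All 5 tested nspa genes had their lowest mean expression in the rescue and their highest in WT, with mutants between. The largest difference was in nspa-8, with 12.8, 12.8, 13.8 and 15.6 CPM in mutants, 5.27, 7.03, 8.34 and 6.75 CPM in the rescue, and 12.5, 28.1, 24.7 and 29.5 CPM in WT. The rescue lay below all mutant and WT samples, and WT replicate 1 lay below every mutant sample. For nspa-8 the rescue differed from mutants by -1.0 ± 0.23 on the log2 scale (edgeR adjusted p = 0.0511 over all genes) and from WT by -1.80 ± 0.23.

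The most abundant gene of the family per kilobase was nspa-4, with 24.7, 23.1, 24.3 and 26 CPM in mutants, 11.9, 13.1, 14.7 and 13.4 CPM in the rescue, and 13.3, 33.5, 33.0 and 40.1 CPM in WT. Values of nspa-1 were 22.3, 21.0, 27.7 and 22.4 CPM in mutants, 11.5, 12.8, 12.8 and 11.9 CPM in the rescue, and 13.2, 33.6, 27.2 and 32.6 CPM in WT. In both genes WT replicate 1 stood at the level of the rescue while the other WT samples lay near or above the highest mutant. Against mutants the rescue differed by -0.88 ± 0.24 for nspa-4 (adjusted p = 0.0936) and by -0.93 ± 0.22 for nspa-1 (adjusted p = 0.0627), both by edgeR.

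The same arrangement held at lower expression for nspa-5, with 10.2 to 13.4 CPM in mutants, 6.02 to 7.62 CPM in the rescue and 6.31 to 17.6 CPM in WT. For nspa-6 the groups overlapped, with 1.13 to 1.97 CPM in mutants, 0.653 to 1.37 CPM in the rescue and 1.01 to 2.91 CPM in WT. Against mutants the log2 fold change of the rescue was -0.83 ± 0.23 for nspa-5 (edgeR adjusted p = 0.0985) and -0.52 ± 0.31 for nspa-6 (edgeR adjusted p = 0.418). All 5 nspa genes had their lowest WT value in replicate 1.

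The family total was 74.2, 68.5, 80.7 and 79.5 CPM in mutants, 35.9, 42, 44.9 and 39.2 CPM in the rescue, and 46.6, 112, 101 and 123 CPM in WT. The log2 ratio was -0.90 for the rescue against mutants, -1.24 for the rescue against WT and -0.34 for mutants against WT. The calls of nspa-1 and nspa-4 in the rescue against WT were lost with collection day as a block, with only these groups in the fit and with only days 2, 4 and 6, and that of nspa-4 also without rescue replicate 1 or 4. The call of nspa-8 was kept in every analysis run. This gene overlaps W06A7.4 (mean 58.9 CPM) on the other strand, and whether the authors' estimate used strand is not given in the sources used here.

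Sperm gene lists had the same order of group means, though not they alone. A list of 6 pharyngeal gland genes averaged 139 CPM in mutants, 114 CPM in the rescue and 166 CPM in WT. Of its genes edgeR called 1 lower and 1 higher in mutants against WT, and 2 lower and 1 higher in the rescue against WT. The 35 msp genes summed to 4040 to 5480 CPM in mutants, 2840 to 3280 CPM in the rescue and 5090 to 7580 CPM in WT, with WT replicate 1 the lowest of the WT samples. The median msp log2 fold change was -0.61 in mutants against WT, -1.18 in the rescue against WT and -0.60 in the rescue against mutants, with 16, 32 and 0 of 35 called lower by edgeR and 0 called higher in any of them. Of all genes tested edgeR called 9.01%, 13.5% and 0.0763% lower in these comparisons. In the rescue against mutants, 29 msp genes were lower at an unadjusted p under 0.05, beside 7.49% of all genes tested. DESeq2 called 19 lower there, beside 0.835% of all genes with an adjusted p. The 12 nspd genes summed to 549 to 578 CPM in mutants, 455 to 481 CPM in the rescue and 606 to 830 CPM in WT, again with WT replicate 1 lowest, and 4, 8 and 0 of the 10 tested were called lower in those comparisons, the 0 beside 7 at an unadjusted p under 0.05 and 1 called by DESeq2.

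A further list of 29 spermatogenesis genes had medians of -0.33, -0.55 and -0.17, with 9, 16 and 1 called lower and 0 higher. Totals of the first nspc array averaged 43.4 CPM in mutants, 64.6 CPM in the rescue and 158 CPM in WT. Between the rescue and mutants edgeR called 0 of its 6 genes. At an unadjusted p under 0.05, 5 of them were higher in the rescue, beside 9.61% of all genes tested. The medians of the sperm lists were below 0 in that comparison. The part of sperm content in the nspa or nspc values was not tested.

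The nspb family was marked by the spread among WT samples. By edgeR and by DESeq2, 0 of the 12 genes were called in any comparison, and at an unadjusted p under 0.05 only 2 differed, both lower in the rescue against WT. In all 12 genes WT replicates 2 and 4 both exceeded WT replicates 1 and 3, and WT replicate 1 was the lowest WT sample in all 12. The highest WT value was a median of 4.44 times the lowest, compared with 1.29 times in mutants and 1.41 times in the rescue.

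The most abundant per kilobase, nspb-12, had 26.3, 28.1, 32.3 and 26.2 CPM in mutants, 23.0, 19.5, 24.1 and 18.5 CPM in the rescue, and 9.06, 40.9, 13.4 and 32.1 CPM in WT. For nspb-6 the values were 20.8, 21.2, 20.3 and 19.3 CPM in mutants, 14.6, 14.7, 15.6 and 9.82 CPM in the rescue, and 6.60, 29, 8.30 and 24.4 CPM in WT. For both genes all mutant and rescue samples lay above WT replicate 1 and below WT replicate 2. At lower expression nspb-2 had 4.87, 4.68, 3.66 and 4.65 CPM in mutants, 2.86, 3.28, 3.08 and 1.96 CPM in the rescue, and 2.10, 8.51, 3.09 and 8.55 CPM in WT. It had the lowest log2 fold change of the family in every comparison, -0.33 ± 0.37 in mutants against WT, -1.02 ± 0.38 in the rescue against WT and -0.68 ± 0.38 in the rescue against mutants (edgeR adjusted p = 0.384 for the last). It overlaps irld-7 on the same strand (mean 2.30 CPM), so reads of these genes may be hard to tell apart.

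The nspb genes lie on 3 chromosomes, and their totals were 160, 146, 153 and 138 CPM in mutants, 110, 108, 120 and 86.8 CPM in the rescue, and 58.1, 240, 77.7 and 202 CPM in WT. The rescue lay below mutants in every sample, at a log2 ratio of -0.49, and in all 12 genes rescue replicate 4 was the lowest rescue sample. Against WT the log2 ratio was 0.05 for mutants and -0.44 for the rescue, with ranges that overlap.

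**Figure D3:**
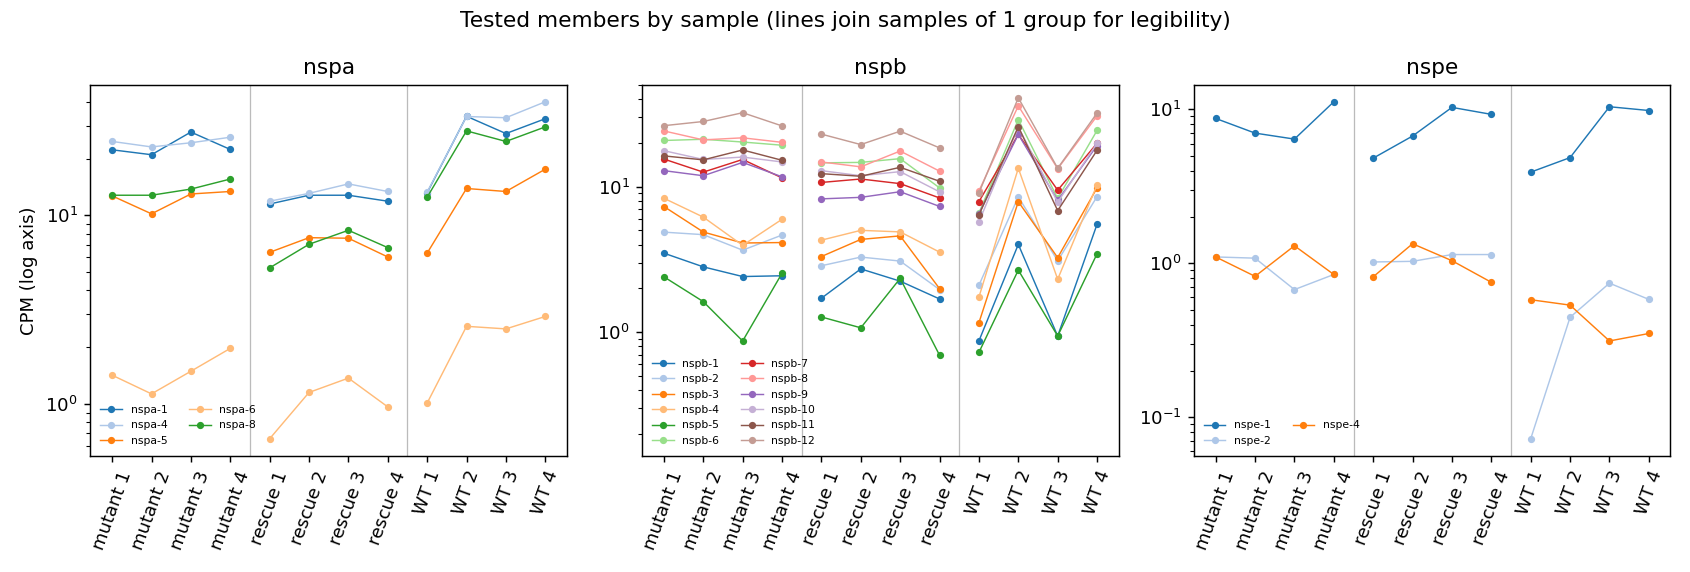
CPM on a log axis (vertical) of the tested nspa, nspb and nspe genes in each of the 4 mutant, 4 rescue and 4 WT samples (horizontal); 1 line per gene joins samples within a group. The 12 nspb genes share the low values of WT replicates 1 and 3, and the 5 nspa genes the low value of WT replicate 1.

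Among the WT samples, lists of stage and tissue markers split as the nspb values did, some in the same and some in the opposite direction. A list of 8 molting cycle genes, among them the molting genes mlt-10 and mlt-11, summed to 499, 614, 803 and 483 CPM in mutants, 1590, 1130, 939 and 1380 CPM in the rescue, and 2140, 177, 1040 and 330 CPM in WT. WT replicates 1 and 3, low in nspb, were thus high in molting genes, and WT replicates 2 and 4 the reverse. The 5 yolk protein genes summed to 8160, 27300, 9550 and 25600 CPM in WT, and the 7 oocyte genes to 579, 1650, 968 and 1410 CPM, which is the same order of high and low samples as in nspb. In mutants yolk sums ran from 16600 to 32000 CPM and nspb totals from 138 to 160 CPM. In the rescue yolk sums ran from 15200 to 28800 CPM and nspb totals from 86.8 to 120 CPM. Oocyte sums averaged 1740 CPM in mutants, 1400 CPM in the rescue and 1150 CPM in WT. The 6 genes of the epidermis list summed to 1200 to 1510 CPM in mutants, 1160 to 1920 CPM in the rescue and 604 to 2520 CPM in WT. Of these 4 lists edgeR and DESeq2 called 0 genes in any comparison, and at an unadjusted p under 0.05 there were 3 molting genes (rescue against mutants, higher), 4 oocyte genes (mutants against WT, higher) and 1 epidermis gene (rescue against WT, higher). The part of developmental timing in the nspb values was not tested.

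The nspc genes did not follow this split of the WT samples in the direction of nspb. In 0 of the 17 tested nspc genes did WT replicates 2 and 4 both exceed WT replicates 1 and 3, compared with 12 of 12 nspb genes. WT totals of the first array were 191, 151, 154 and 136 CPM in replicates 1 to 4, with the highest in replicate 1. Replicates 1 and 3 thus both exceeded replicates 2 and 4, the direction of the molting list, though 154 and 151 CPM lie close together. The same order held in nspc-1, nspc-2, nspc-3 and nspc-4 of this array, and not in nspc-5 and nspc-7. Totals of the second and the third array split in neither direction.

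**Figure D4:**
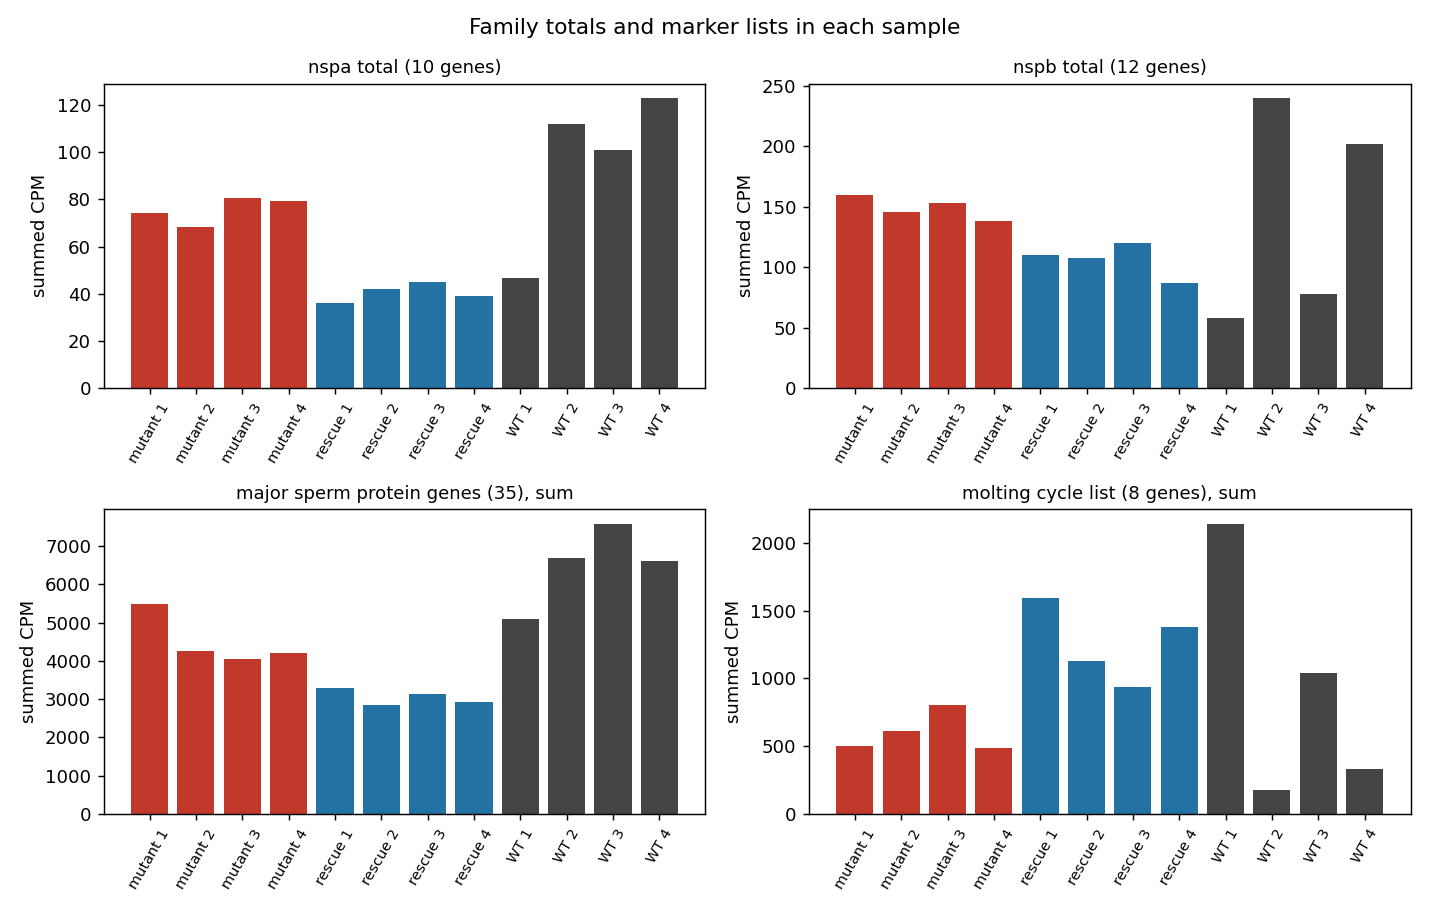
Summed CPM (vertical axes, from 0) in each of the 12 samples for all nspa genes, all nspb genes, the 35 msp genes and the 8 molting cycle genes; 1 bar per sample, for mutants, rescue and WT. The nspa total and the msp sum are lowest in the rescue, and among WT samples the nspb total is low (58.1 and 77.7 CPM) where the molting sum is high (2140 and 1040 CPM).

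Of the 8 nspe genes 3 were tested, and their expression was low. In nspe-4, the member called higher in both comparisons with WT, CPM was 1.10, 0.823, 1.3 and 0.846 in mutants, 0.817, 1.34, 1.04 and 0.753 in the rescue, and 0.580, 0.535, 0.313 and 0.350 in WT. All mutant and rescue samples exceeded all WT samples, by log2 fold changes of 1.22 ± 0.28 in mutants and 1.19 ± 0.28 in the rescue. Between the rescue and mutants the log2 fold change was -0.03 ± 0.24 (edgeR adjusted p = 0.962).

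The edgeR adjusted p of nspe-4 against WT was 0.00721 in mutants and 0.00573 in the rescue. That call thus lay close to the threshold of 0.01. In mutants it was lost without WT replicate 3 or 4, without any 1 of the mutant replicates and without rescue replicate 1 or 3, and in the rescue without WT replicate 3 or 4 and without rescue replicate 2 or 3, each time leaving 0 members called higher. In nspe-2 CPM was 1.10, 1.08, 0.675 and 0.846 in mutants, 1.02, 1.03, 1.14 and 1.14 in the rescue, and 0.0725, 0.446, 0.743 and 0.583 in WT. The rescue lay above WT, and mutants overlapped it through mutant replicate 3 and WT replicate 3. The most abundant per kilobase, nspe-1, spanned 6.41 to 11.2 CPM in mutants, 4.82 to 10.3 CPM in the rescue and 3.91 to 10.4 CPM in WT, and its groups overlapped throughout.

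Counted by order alone, 9 members lay below WT in every mutant sample, beside 15.9% of all genes tested, and 12 did so in every rescue sample, beside 18.3%. The 9 were the 6 genes of the first array with nspc-9, nspc-10 and nspc-15. The 12 were these and nspc-19, nspa-1 and nspa-8.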

How the data were processed

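The authors made stranded poly(A) libraries, sequenced paired 50-base reads, and estimated transcript abundance with Salmon, collapsed to genes with tximport; they aligned reads with STAR to a build given as Ensembl94, and the submitters' notes name WBcel235. Versions of STAR, Salmon and tximport are not given in the sources used here. Of the 2 deposited tables, that of estimated counts (expected counts, not normalized) was used, and the other, the same counts divided by size factors, was not. Each column was matched to its sample by name.

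Counts were rounded, filtered with edgeR's filterByExpr (15728 genes left), scaled by TMM and fitted over all 12 samples with edgeR 4.0.16 (R 4.3.3) glmQLFit and glmQLFTest, 1 mean per group, Benjamini-Hochberg adjustment over all genes and a threshold of 0.01. The fits were tested on simulated counts. Errors of fold changes are standard errors. Totals of families and arrays are sums of CPM, with no test. Positions and lengths come from Ensembl release 115 for WBcel235. The members and the gene lists were chosen with earlier results of these data known.

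Members named with full values were nspc-5, the most abundant tested gene of each family, and those with the lowest and highest fold change in each comparison; other members, such as the genes of the first nspc array, were chosen after their values were seen. Replicate numbers mark a shared collection day for mutants and rescue only; deviations of same-numbered samples correlated at -0.143 to 0.148 between these groups. Alternatives were DESeq2 1.42.0, other scalings and filters, replicate or collection day as a block, only the compared groups, days 2, 4 and 6 alone, a threshold of 0.05 and leaving out each sample. Every fit used rounded counts, and unrounded counts were an alternative for totals alone. Non-members were named by their correlation with the nspc total, and 1 result of this kind is not reported here.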

Additional observations from a re-analysis of the deposited data

Results flagged for a closer look

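One value stood far from the rest of its group. In nspb-6, rescue replicate 4 had 9.82 CPM, where the other rescue samples had 14.6 to 15.6 CPM. Of 132 groups of 4 samples examined this was the only one, and chance alone would mark about 1 in 20. The same library was the lowest rescue sample in all 12 nspb genes.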

How the results depend on the processing

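Counts of called members were recomputed under each alternative. The 1 member called higher in mutants against WT became 0 with at least 10 counts required in every sample, with a replicate block, with a collection day block, with only these groups in the fit and with days 2, 4 and 6 alone, and 0 to 1 with a sample left out. The 1 called higher in the rescue against WT became 0 under the same alternatives, 0 to 1 with a sample left out, and 2 with DESeq2 or at a threshold of 0.05. The 13 called lower in the rescue against WT became 7 with the collection day block and 8 with days 2, 4 and 6, which were chosen after seeing the data. For the rescue against mutants, the 0 called lower became 2 with DESeq2, 6 with only these groups and 0 to 4 with a sample left out, and the 0 called higher became 1 with the replicate block. The causes were not tested. No family or array total moved by more than its spread.

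The lost calls of nspc-5 are given above and are not counted here. Of 984 recomputed log2 fold changes of the other named members, 888 kept direction and stayed called or uncalled, 34 lost the call, 28 gained it and 34 turned direction, none of them a called change. With the collection day block these were nspa-5 (0.17) and nspb-2 (0.07) in mutants against WT, and nspb-6 (0.06) and nspb-12 (0.21) in the rescue against WT. With library size alone, which shifted the median gene by 0.10 in the rescue against WT, they were nspc-14 (0.07) in the rescue against WT, and nspc-15 (0.01) and nspe-4 (0.03) in the rescue against mutants. With days 2, 4 and 6 they were nspa-5 (0.10) in mutants against WT, and nspc-16 (-0.10), nspe-1 (0.11) and nspe-4 (0.09) in the rescue against mutants. With a sample left out, mutants against WT ran from -0.29 to 0.12 in nspa-5, -0.01 to 0.61 in nspb-6, -0.03 to 0.61 in nspb-12, -0.13 to 0.26 in nspc-16 and -0.01 to 0.40 in nspe-1. The rescue against WT ran from -0.59 to 0.03 in nspb-6, -0.44 to 0.20 in nspb-12, -0.08 to 0.05 in nspc-14, -0.03 to 0.36 in nspc-16 and -0.10 to 0.31 in nspe-1. The rescue against mutants ran from -0.11 to 0.02 in nspc-15, -0.03 to 0.17 in nspc-16, -0.26 to 0.08 in nspe-1 and -0.21 to 0.10 in nspe-4.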
